A study of Mus musculus with 8 samples.

Results

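The AP-2 transcription factor genes are the 5 paralogues Tfap2a, Tfap2b, Tfap2c, Tfap2d and Tfap2e. They were followed here through H3K27me3 ChIP-seq of primary female neural stem cells (NSCs), in which the 10 regions that belong to them were taken from a table of 13585. A region was included when it overlapped an AP-2 gene widened by 5 kb on each side, which gave 5 regions, 1 for each gene. All regions inside a stretch of 262550 bp on chromosome 2, from 12942 bp before the Tfap2c start to 249.6 kb after it, were included as well, which gave 6 regions, the Tfap2c region among them. That stretch is called the Tfap2c interval below. The genes and the borders of the interval were chosen by the same pair of values that is compared below, the deposited WT and MommeD43 values, so these differences are a description and nothing is tested with them.

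Both genotypes carried a GFP tag on endogenous Smchd1 in the C57BL/6J strain. WT cells were Smchd1GFP+/+ and MommeD43 cells were Smchd1GFPMommeD43/MommeD43, homozygous for a missense variant that was introduced by genome editing into the tagged allele. Each genotype was represented by 3 H3K27me3 libraries from separate lines, grown from the cortex of mid-gestation embryos for fewer than 10 passages, and by 1 whole cell extract (WCE) library from a single line. The comparison asked whether H3K27me3 lay differently on the genome in MommeD43 NSCs. Each genotype has 1 column of values, the authors' pooled log2 read count per region after scaling to library size, so no value below has an SD or an n, and no difference has a replicate check. Any variation between cell lines is therefore unknown, and the WCE libraries were not analysed here.

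AP-2 proteins bind GC-rich DNA as dimers and switch on genes of early embryonic tissues. Tfap2a is needed for neural crest, face and skin, Tfap2b for kidney and parts of the neural crest, and Tfap2c for trophoblast and primordial germ cells. Tfap2d is expressed in midbrain and retina, and Tfap2e in the olfactory bulb. H3K27me3 is the mark of Polycomb repressive complex PRC2, which gathers on CpG-rich DNA of developmental genes that a cell does not use. RNA is not part of the data used here, so the mark on an AP-2 gene says nothing direct about its transcription. The study sequenced RNA of NSCs of both genotypes separately and reported no significant changes in MommeD43.

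The sequences below show the CpG content of single windows at these loci. The promoter windows come from RefSeq on GRCm38.p6 and run 250 bases before and 50 bases after a RefSeq start. They matched 4 of the 5 genes, with 7 windows in all, and the set of windows used here had no entry for Tfap2c. The window farthest upstream is printed for each gene, 5′ to 3′ on the strand of the gene, with every CpG in capitals. They lie at chr13:40734871-40735170 (minus strand) for Tfap2a, chr4:126736220-126736519 (minus strand) for Tfap2e, chr1:19211804-19212103 (plus strand) for Tfap2b and chr1:19102772-19103071 (plus strand) for Tfap2d.
Tfap2a promoter: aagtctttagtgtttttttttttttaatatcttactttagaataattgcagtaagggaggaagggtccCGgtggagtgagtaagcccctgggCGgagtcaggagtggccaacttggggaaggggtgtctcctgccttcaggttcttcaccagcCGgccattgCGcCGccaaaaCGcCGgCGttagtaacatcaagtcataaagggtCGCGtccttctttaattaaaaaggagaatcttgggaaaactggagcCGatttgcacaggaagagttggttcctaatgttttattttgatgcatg
Tfap2e promoter: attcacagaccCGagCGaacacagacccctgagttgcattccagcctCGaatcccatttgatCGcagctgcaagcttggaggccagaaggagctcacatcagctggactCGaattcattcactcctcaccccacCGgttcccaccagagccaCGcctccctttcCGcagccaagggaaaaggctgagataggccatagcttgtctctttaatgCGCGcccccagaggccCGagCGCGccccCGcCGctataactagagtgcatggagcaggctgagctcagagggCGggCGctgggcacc
Tfap2b promoter: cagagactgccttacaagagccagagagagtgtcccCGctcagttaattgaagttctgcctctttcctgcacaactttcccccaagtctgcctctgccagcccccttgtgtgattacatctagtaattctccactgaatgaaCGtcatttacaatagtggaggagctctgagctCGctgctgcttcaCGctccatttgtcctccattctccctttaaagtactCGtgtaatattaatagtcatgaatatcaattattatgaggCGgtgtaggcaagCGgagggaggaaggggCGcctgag
Tfap2d promoter: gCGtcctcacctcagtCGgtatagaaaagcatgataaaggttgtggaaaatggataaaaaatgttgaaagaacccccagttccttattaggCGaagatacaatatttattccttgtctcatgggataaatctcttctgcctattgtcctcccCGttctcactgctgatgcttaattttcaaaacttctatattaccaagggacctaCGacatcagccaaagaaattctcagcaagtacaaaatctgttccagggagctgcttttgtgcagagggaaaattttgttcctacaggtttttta

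The Tfap2e window held 17 CpGs and the Tfap2a window 11, against 8 in Tfap2b and 5 in Tfap2d. The order depends on the start that is used, since the other Tfap2a window held 15 and the other Tfap2d windows 5 and 10. The printed Tfap2a and Tfap2b windows lie inside the genes, downstream of the outermost annotated starts at chr13:40738376 and chr1:19208914. The median over all 32851 promoter windows was 7, with quartiles of 3 and 20. The palindromic AP-2 site GCCNNNGGC, which reads the same on both strands, was in 0 of the 7 AP-2 windows and in 16.6% of all windows. That says only that these letters are not in these windows.

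Part of the Tfap2c interval carries CpG-rich DNA far from any annotated gene. In each region the 300 bases with the most CpGs were found in the GRCm38.p6 sequence, and the plus strand is printed for the outermost region, the sixth of the interval, with every CpG in capitals. Its window lies at chr2:172787658-172787957.
The sixth region: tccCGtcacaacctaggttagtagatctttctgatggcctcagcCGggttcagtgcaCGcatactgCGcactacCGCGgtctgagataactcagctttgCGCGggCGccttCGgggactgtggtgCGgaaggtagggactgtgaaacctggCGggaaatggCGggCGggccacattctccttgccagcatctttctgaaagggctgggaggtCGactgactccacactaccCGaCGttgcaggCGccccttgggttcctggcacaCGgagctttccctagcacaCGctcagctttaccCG

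The sixth region reached 21 CpGs in 300 bases, 238 kb downstream of the Tfap2c start. As many or more were found in 6.81% of the 4188 autosomal regions that overlap no protein-coding gene, a class with a median of 11. Among the regions on the genes, the highest count was 48 for Tfap2e, followed by 43 for Tfap2a, 41 for Tfap2c, 29 for Tfap2b and 20 for Tfap2d. A longer region has more windows to choose from, and the class had a median length of 8.15 kb, so these counts are not corrected for length.

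All 10 AP-2 regions had a higher value in MommeD43 than in WT, where 60.2% of all regions did. In 7 of the 10 the difference, MommeD43 minus WT, was at least 1 on the log2 scale, a level reached by 6.09% of all regions and 2.28% of the 11707 autosomal ones. No AP-2 region was lower by as much, against 3.03% of all regions. A difference of at least 0.5 was seen in 8 AP-2 regions and in 18.3% of all regions. The median difference was 1.29 over the 10 AP-2 regions and 0.11 over all regions. Since 6 of the 7 lie in the interval whose borders the difference helped to set, and neighbouring regions are not independent, these shares describe the choice of regions as much as the genes. Over the 5 regions on the genes alone, 2 were of this size, Tfap2c and Tfap2d. All values are relative to library size, so a higher value does not show that the cells carry more of the mark. The paper itself considers ChIP-seq a poor gauge of the amount of a mark. Its antibody staining of female NSCs gave modestly less H3K27me3 in MommeD43 on the inactive X. The same was reported for the nucleus as a whole, without data shown.

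**Figure D1:**
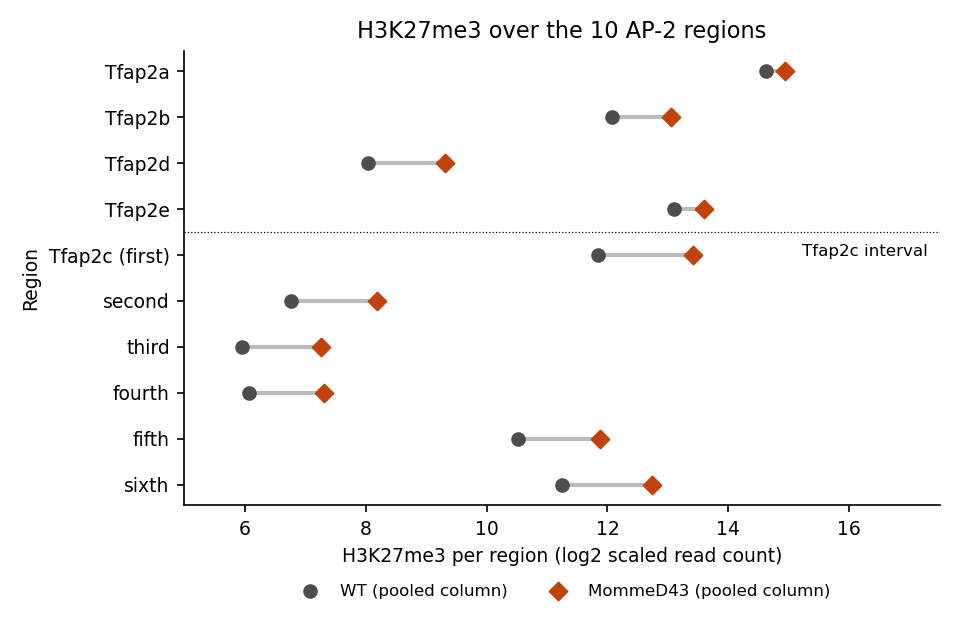
Pooled H3K27me3 value of each AP-2 region (log2 scaled read count, horizontal axis) in WT (circles) and MommeD43 (diamonds), with no error because each genotype has 1 column. Every diamond lies right of its circle, by 0.32 for Tfap2a and by 1.58 for Tfap2c.

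Tfap2a had the highest value of the family. Its region, chr13:40687551-40760050, was 72500 bp long, covered the whole gene (chr13:40715302-40738376, minus strand) and held all 6 annotated starts of its coding transcripts. Exons of protein-coding genes made up 6.76% of it, and 5 non-coding genes, antisense or intergenic, lay in it as well. The value was 14.62 in WT and 14.94 in MommeD43, a difference of 0.32 with a smallest counting error of 0.01. Behind it stood 7697 reads per WT library and 11944 per MommeD43 library, each the geometric mean of 3. The counting error assumes Poisson counts spread evenly over the libraries and leaves out PCR duplication and cell line differences. The Tfap2a difference stood at percentile 74.2 of autosomal regions, so larger differences were common elsewhere.

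Tfap2e resembled Tfap2a. Its region, chr4:126718701-126753100, covered 86.7% of the gene (chr4:126716006-126736240, minus strand), held its start and also overlapped Ncdn, which encodes the neuronal protein neurochondrin. Reads of the 2 genes cannot be told apart within the region. Its value was 13.11 in WT and 13.60 in MommeD43, a difference of 0.49 with a counting error of 0.02, at percentile 86.0 of autosomal regions.

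Tfap2b and Tfap2d are neighbours on chromosome 1 and were both more than 0.9 higher in MommeD43. The Tfap2b region, chr1:19200951-19248100, covered the whole gene (chr1:19208914-19238576, plus strand) and its 3 coding starts, and exons made up 13.4% of it. Its value was 12.07 in WT and 13.06 in MommeD43, a difference of 0.99 with a counting error of 0.03, just under 1. The Tfap2d region, chr1:19098051-19115050, held the start and 18.996% of the gene (chr1:19103022-19166346, plus strand), so most of the gene body lay outside any region. Its value was 8.03 in WT and 9.31 in MommeD43, a difference of 1.28 with a counting error of 0.11. It was the shallowest of the 5 gene regions, with 80.2 reads per library in WT and 241 in MommeD43.

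The pair stood alone in its surroundings. The gap between the Tfap2d and Tfap2b regions was 85.9 kb, the next region before Tfap2d was 1036 kb away and the next after Tfap2b 1227 kb away. The region before, which overlaps no protein-coding gene, differed by 1.52 with a counting error of 0.17. The region after lies in Pkhd1, the gene of the ciliary protein fibrocystin, and differed by 0.86 with an error of 0.21. Farther out the values were below 0 before the pair and mixed after it. Going outwards, the next regions before, in Jph1, Ube2w, Stau2 and Sbspon, differed by -0.78, -0.49, -0.60 and -0.39. The next 4 after differed by -0.97, 0.0066, 0.26 and 0.06.

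Tfap2c had the largest difference of the family as deposited, a rank it lost to Tfap2d with the GC trend removed, at 1.28 against 1.46, and when the read density trend was taken out as well, at 1.14 against 1.43. Its region on chromosome 2 was 53450 bp long, ended at 172590100, covered the whole gene (chr2:172549593-172558622, plus strand) with its 3 coding starts, and ran 12942 bp upstream and 40507 bp downstream of the start. Exons made up 6.88% of it and no other gene overlapped it. The value was 11.84 in WT and 13.42 in MommeD43, a difference of 1.58 with a counting error of 0.03, from 1123 reads per library in WT and 4155 in MommeD43. That is 2.98-fold, and it ranked 56 among the 11707 autosomal regions. Because both columns average 3 log2 values, the difference equals 4.73 between the sums of the 3 values of each genotype. How that sum was shared among the lines is not shown by the pooled columns.

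The 5 further regions of the interval, an unbroken run at 1 or more together with the Tfap2c region, differed widely in level. None of them overlapped an exon, a coding gene or a non-coding gene. The second, chr2:172610151-172617850, had a value of 6.77 in WT and 8.18 in MommeD43, a difference of 1.41. The third, chr2:172620351-172626850, went from 5.96 to 7.26, a difference of 1.30. The fourth, chr2:172657251-172663150, went from 6.07 to 7.31, a difference of 1.24. These 3 short regions were the weakest members, with 19.05 to 33.3 reads per library in WT, and their counting errors were 0.16, 0.22 and 0.21.

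The outer pair of regions was broad and much stronger. The fifth, chr2:172713501-172746100, had a value of 10.51 in WT and 11.87 in MommeD43, a difference of 1.36 with an error of 0.05. The sixth, which starts at chr2:172748451 and is 50750 bp long, went from 11.25 to 12.73, a difference of 1.48 with an error of 0.03. The latter held 22 matches of GCCNNNGGC and the fifth 14, or 4.33 and 4.29 per 10 kb against a median of 1.90 over all regions. Those densities stood at percentiles 84.8 and 84.4 of all regions, and the GC contents of the 2 regions at 85.6 and 83.7. The part of base composition in these densities was not tested. The Tfap2c region itself held 3.55 per 10 kb. The short regions held 1, 1 and 3 matches, or 1.30, 1.54 and 5.08 per 10 kb. A match marks no binding.

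Within the interval the differences ran from 1.24 to 1.58 with an SD over the 6 regions of 0.12, a narrow range that the choice of the borders helped to set. The 95% counting intervals of the 3 short regions overlapped those of every other region in the interval. The interval of the Tfap2c region, 1.52 to 1.63, did not overlap that of the fifth, 1.27 to 1.45. Regions covered 59.8% of the interval, and the gaps between them were 20.05, 2.5, 30.4, 50.35 and 2.35 kb. Summed over the 6 regions, 156.9 kb in all, the scaled count was 7814 in WT and 22100 in MommeD43, or 49.8 and 141 per kb, a log2 ratio of 1.4999. The 5 regions without the gene gave 40.04 and 108 per kb and a log2 ratio of 1.43.

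Outside the interval the deposited difference was smaller on either side. Going outwards before Tfap2c, the next 5 regions differed by 0.98, 0.80, 0.65, 0.62 and 0.34. Those after the interval differed by 0.89, 0.29, 0.45, 0.53 and 0.58. All 10 neighbours were higher in MommeD43 as deposited and none by 1 or more. With the autosomal trend of the difference with GC content removed, 9 of the 10 were above 0, from 0.03 for the region over Fam210b to 0.67, and the Bmp7 region was at -0.18. The closest ones, 19.2 kb before and 17.1 kb after, are the values just outside the border, and 1.58 and 1.48 are those just inside. The interval has the borders of an unbroken run of deposited differences at 1 or more. That the closest neighbours were below 1 therefore follows from the choice of borders. The region at the start of Bmp7, the gene of a bone morphogenetic protein that lies 68.8 kb beyond the interval, differed by 0.29 with a counting error of 0.13, the lowest of the 10. Around Tfap2a the 10 nearest regions ranged from -1.14 to 0.56 with a median of -0.08, and around Tfap2e from -0.38 to 0.76 with a median of 0.24.

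**Figure D2:**
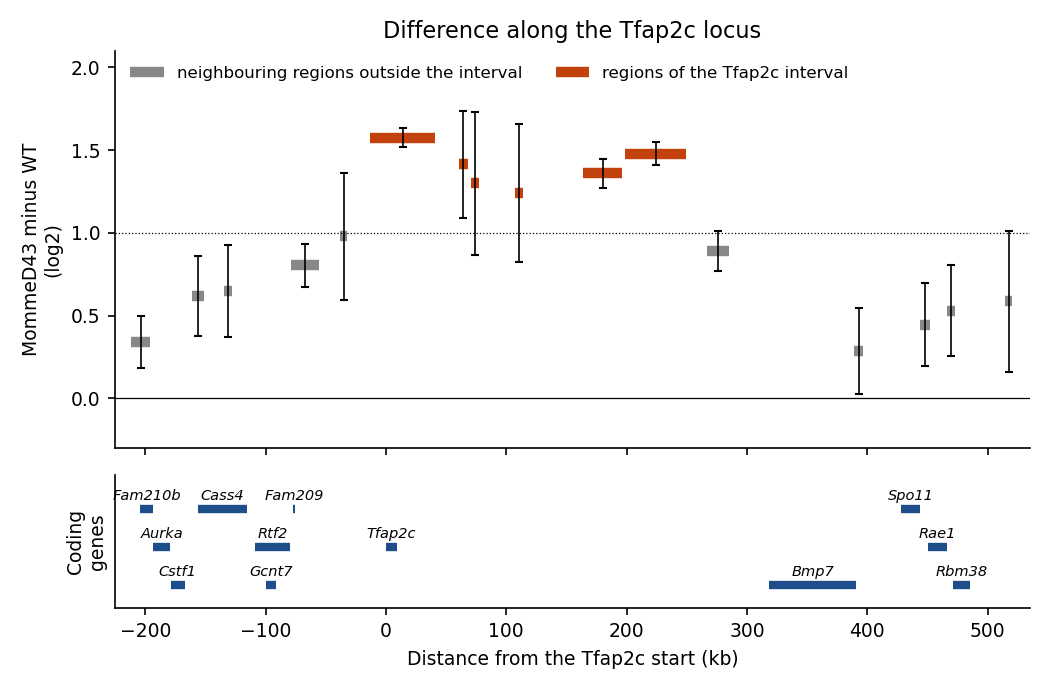
Difference MommeD43 minus WT (log2, vertical axis) of each region along the Tfap2c locus against the distance from the Tfap2c start in kb, with bar width showing region length, error bars the 95% counting interval and protein-coding genes drawn underneath. The 6 regions of the interval (orange) lie between 1.24 and 1.58, and the 10 neighbours (grey) between 0.29 and 0.98.

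Levels were compared per kilobase, because the deposited values grow with region length. In WT the order of the gene regions was Tfap2a at 347 scaled reads per kb, Tfap2e at 257, Tfap2b at 91.3, Tfap2c at 68.7 and Tfap2d at 15.4. In MommeD43 it was 434, 361, 181, 204.7 and 37.4 for the same genes, so Tfap2c stood above Tfap2b there and below it in WT. Tfap2a and Tfap2e were at percentiles 99.9 and 99.6 of density over all regions, Tfap2b and Tfap2c at 97.2 and 96.8, and Tfap2d at 23.3. The paralogues of the highest density thus had the smallest differences, 0.32 and 0.49, which is a description of 5 genes. The gene regions differed from each other by more than counting error, since no 2 of their 5 counting intervals overlapped, but this sets no limit on variation between lines.

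**Figure D3:**
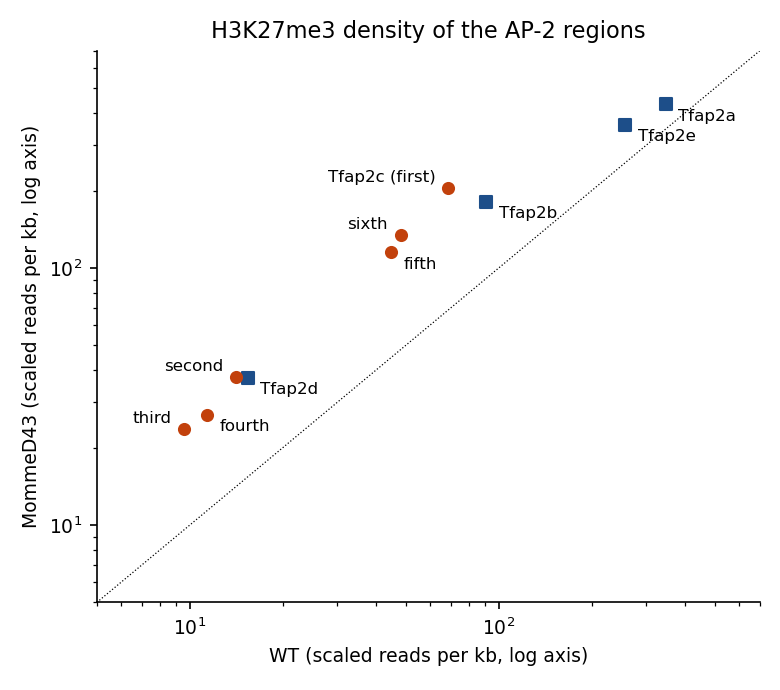
H3K27me3 density of the AP-2 regions (scaled reads per kb, both axes logarithmic) in WT against MommeD43, with the dotted line where both are equal. All 10 points lie above the line, and Tfap2a and Tfap2e, the densest, lie closest to it.

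Base composition moves with the difference in these pooled columns, and its part in the AP-2 values was not tested. Over the autosomal regions, which share libraries and are not independent, Spearman's rho between the difference and GC content was 0.583. The 6 interval regions had 47.3% to 50.6% GC, where the running median of autosomal regions lies between 0.16 and 0.31. With that trend removed they differed by 0.94 to 1.28. Tfap2b and Tfap2d had low GC content, 42.0% and 42.7%, where the running median was -0.28 and -0.18, and their differences were 1.27 and 1.46 with the trend removed. Tfap2e, at 50.6%, fell to 0.18, and Tfap2a to 0.23. Tfap2d was then at percentile 99.4 of autosomal regions, and Tfap2b and Tfap2c were both at 99.1.

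**Figure D4:**
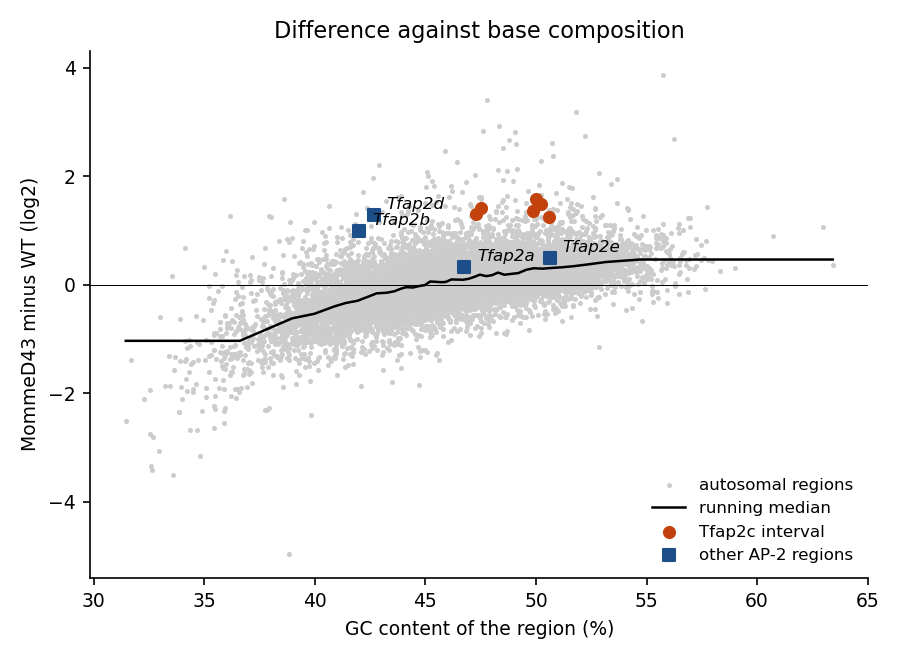
Difference MommeD43 minus WT (log2) of autosomal regions (grey) against their GC content in percent, with the running median as a black line, the Tfap2c interval as orange circles and the other AP-2 regions as blue squares. The interval lies at 1.24 to 1.58 and Tfap2b and Tfap2d at 0.99 and 1.28, all above the line, and Tfap2a and Tfap2e lie near it.

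How far the values depend on scaling differed between genes. Setting the total of the regions equal lowers every difference by 0.24, and all 10 remained above 0, as did 37.1% of all regions. With GC and read density trends removed, Tfap2e was at -0.04 and Tfap2a at 0.0025, so neither direction can be read for that pair. Tfap2b, Tfap2d and all 6 interval regions were at 0.71 or more under each of the 6 alternatives.

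**Figure D5:**
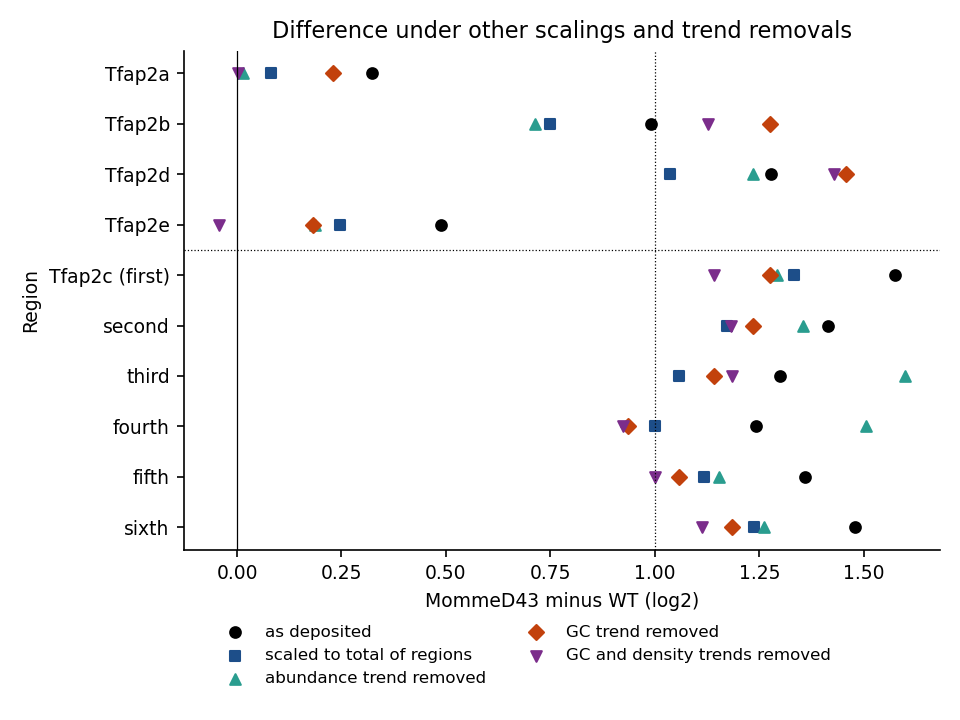
Difference MommeD43 minus WT (log2, horizontal axis) of each AP-2 region as deposited and under 4 other scalings or trend removals, with the solid line at 0 and the dotted line at 1. Tfap2a and Tfap2e approach or cross 0, at 0.0025 and -0.04, and the Tfap2c interval stays at 0.92 or more.

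Genes that work with AP-2 proteins or in the same tissues were looked at by the region that holds their start, and these lists, too, were made with results of these data known. As background, 2.40% of autosomal regions holding a protein-coding start and 2.15% of those without a coding gene were higher by at least 1. Of 12 coregulators, 5 had a start in a region, with a median difference of 0.32, and none reached 1. The highest was Cited1, an X-linked coactivator of AP-2, at 0.94, where 62.5% of X-linked regions holding a protein-coding start were higher by at least 0.5 and 35.9% by at least 1. The lowest was Crebbp, an acetyltransferase, at -0.10. Kctd1 and Kctd15, which inhibit AP-2 activity, had no region at their start.

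Of 18 genes of the neural plate border and neural crest, 16 had a start in a region, with a median of 0.31. They lay in 15 regions, since Dlx5 and Dlx6 share 1. Higher values in MommeD43, by any amount, were found for 14 of the 16 and for 68.0% of autosomal regions holding a protein-coding start. Prdm1, a repressor of differentiation programmes, had the highest difference at 1.06, Gbx2, a homeobox gene of the hindbrain border, was at 1.02, and Twist1, a mesenchymal bHLH factor, was lowest at -0.14. Of 13 trophoblast and germ cell partners of Tfap2c, 11 had a start in a region, with a median of 0.45, and 1 reached 1, Prdm1 again. Elf5, a trophoblast factor, was lowest at -0.0078. Of 12 genes of surface ectoderm and keratinocytes, 7 had one, in 6 regions since Krt8 and Krt18 share the one at the median of 0.10. None reached 1, and values ran from -0.14 for Perp, a desmosome protein, to 0.55 for Grhl2, an epithelial factor. As deposited, no member of these lists was lower by 1 or more, and none was as high as Tfap2c. With the GC trend removed, Prdm1 was at 1.42, above Tfap2c at 1.28. Cited1 was also at 1.28, but it is X-linked and the trend was fitted to autosomal regions only.

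The cell type label was not checked against expression, which is not part of the data used here. A region was missing at the start of 2 of 18 neural plate border and crest genes, 2 of 13 trophoblast and germ cell genes and 5 of 12 surface ectoderm genes. The NSC genes Sox2, Olig2, Fabp7 and Vim had no region at their start. Regions did lie over the starts of 5 others, among them Nes, a neural progenitor filament, with a difference of 0.56. Pax6, a cortical progenitor factor, was highest at 1.18, and Msi1, an RNA-binding protein, lowest at -0.08. The share of all protein-coding genes that lack a region at their start was not worked out. None of these counts therefore bears on the cell type.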

How the data were processed

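Of the 8 samples, 3 H3K27me3 libraries and 1 WCE library came from each genotype. The labels state that nuclei were digested with MNase, and the study's methods describe sonication. Per the labels and methods, the authors trimmed reads with Trim Galore 0.4.4, aligned them with Bowtie2 2.3.4.1 to GRCm38.p6 and counted them in SeqMonk after extension by 150 bp. Peaks of either genotype, called against WCE on merged replicates, were widened by 2.5 kb per side and joined within 1 kb. The deposited log2 values are read counts per region, scaled to library size and pooled by genotype. They are neither divided by length nor corrected for WCE.

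Count tests planned for single libraries could not be run on 2 pooled columns, so no p-value is given. Depth was recovered from the fact that the antilog of 3 times a value is a whole multiple of a constant: among products under 30000, 1138 of 1139 WT products and 681 of 684 in MommeD43 were whole to within 0.1. A read was worth 3.27 scaled counts in WT and 2.63 in MommeD43, and regions had medians of 100.1 and 129.96 reads per library. The recovery was tested on simulated data. Genes came from GENCODE M21 on GRCm38. Trends were running medians over 40 bins of autosomal regions. All members were named, and of each gene list the highest and lowest, besides genes singled out after their values were seen. The members, lists and alternatives were chosen with earlier results of these data known. A planned comparison of AP-2 proteins was not analysed here. A sequence window and a gene of the NSC list are not reported here. Python 3.11.15 was used with pandas 2.3.3, numpy 2.4.6, pysam 0.24.0, scipy 1.17.1 and matplotlib 3.10.9.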

Additional observations from a re-analysis of the deposited data

How the results depend on the processing

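No paired analysis was possible because pooled values carry no replicate number, and for the same reason no replicate could be left out. The spread used for a move is the 95% counting interval. The count of 7 AP-2 regions higher by at least 1 was 6 with GC and read density trends removed, 5 with a minimum mean count of 50, which leaves out 2 weak regions, and 8 with a threshold of 0.5. The count of lower ones was 0 under every alternative tried. A margin of 20 kb or none gave the same regions. The median over all AP-2 regions stayed within its counting interval, from 1.05 to 1.32 under other scalings, trends, filters and margins, and was 0.99 over the gene regions alone, which was chosen after seeing the data.

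The median of the Tfap2c interval, 1.39, moved to 1.14 when region totals were set equal. Removing the GC trend gave 1.16, and removing the density trend as well gave 1.13. Its summed ratio of 1.4999 was 1.26 for equal totals, 1.42 for equal autosomal medians, 1.204 without the GC trend and 1.39 as an unweighted mean.

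The order of values in the next sentences is scaling to the total, scaling to the autosomal median, abundance trend removed, GC trend removed, and GC and density trends removed. Tfap2a, 0.32 as deposited, gave 0.081, 0.25, 0.014, 0.23 and 0.0025. Tfap2b, 0.99, gave 0.75, 0.91, 0.71, 1.27 and 1.13. Tfap2c, 1.58, gave 1.33, 1.5004, 1.29, 1.28 and 1.14. Tfap2e, 0.49, gave 0.25, 0.41, 0.19, 0.18 and, reversed, -0.044. Tfap2d, 1.28, moved past its counting interval with scaling to the total only, to 1.04. Summed values of these genes are those of their single regions. A common scaling lowers every value alike by construction, and for the trend removals the cause was not tested. Depth limits the second, the third and the fourth regions of the interval, with counting errors of 0.16 to 0.22.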

Other observations

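Unbroken runs of neighbouring autosomal regions that were all higher by at least 1 in MommeD43 were counted after the data were seen. There were 170 such runs, of which 125 held a single region and 7 held 6 or more. The Tfap2c interval was 1 of the 6 runs of 6 regions, with a span of 262.55 kb. Its borders are those of the run, so its place among the runs comes from how it was chosen. The run was unbroken as deposited, but 5 of its 6 regions were at 1 or more once the GC trend was taken out, and 4 when read density was taken out too. The other runs of 6 had medians of 1.17 to 1.499, beside 1.39 for the Tfap2c interval. They lay over Camta1, Wscd2, Slit3 and Asic2 and at chr4:125723901-125965450, which overlaps no protein-coding gene. The longest run held 10 regions over Tbx3, Tbx5 and Rbm19, with a median of 2.56. The span of the 6 runs of 6 regions ran from 154.85 to 561.35 kb.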
